A study of Danio rerio with 6 samples.

Results

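The genes described here are 6 of the 10022 rows of the count table: the keratins krt4 and krt8 and the desmosomal plaque genes dspa, ppl, evpla and pkp1b, taken by name. The 6 libraries were made from zebrafish embryos aged 48 hours post fertilization, by laser capture of the distal pronephric tubule in the larval kidney. In 3 libraries the embryos were epcam+/+ (control), and in 3 they were homozygous for the epcam allele hi2151 (mutant), so that the cell adhesion protein Epcam was targeted. Embryos of both groups carried the reporters Tg(wt1b:GFP) and Tg(cdh17:GFP), and no source used here gives the number of embryos behind a library. Epcam is known to be made in the zebrafish epidermis as well as in the pronephros.

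Keratins are the intermediate filament proteins of epithelia, and each filament pairs a type I with a type II chain. In mammals, simple epithelia such as kidney tubules pair the type II keratin Krt8 with the type I keratin Krt18, while layered skin uses other pairs. Whether the krt8 and krt18 counts here came from tubule or from skin was not tested. In zebrafish krt4 is known as a type II keratin of the superficial skin cells. Desmosomes are cell junctions to which keratin filaments attach. In mammals, desmoplakin ties the filaments to a plaque of plakoglobin and plakophilins beneath the desmosomal cadherins, and envoplakin and periplakin belong to the plaque and cornified envelope of layered epithelia. The older names of krt4 in the RefSeq table include krt8, so rows were told apart by their Ensembl identifiers.

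Total counts were 188022 to 746232 in the controls and 126861 to 250714 in the mutants, after the lowest value of each column was subtracted. Nothing says that the libraries came from separate clutches or captures, so p-values measure only the spread between these samples. The library names carry 2 codes that were read here as sequencing projects. By that reading control 3 shares its project with the mutants rather than with controls 1 and 2. Counts of epcam were 10, 15 and 10 in controls 1 to 3, but 0 in each mutant. Control 3 stood apart in its makeup. Of 17 pronephric tubule markers 14 had a row, and their summed counts were 14310, 12333 and 1532 CPM (counts scaled to 1e6) of library total for controls 1 to 3, against 13092, 2396 and 6286 for mutants 1 to 3. The tubule cadherin cdh17 had 1406, 1515 and 22 counts across controls 1 to 3, against 300, 25 and 109 across mutants 1 to 3. Other markers of the list had other patterns. The level of gata3 in TMM-scaled CPM was 717.2 in control 3, against 110.4 and 87.33 in controls 1 and 2. For tfap2b and kcnj1a.1 all mutants lay above all controls in CPM, without passing the edgeR test (adjusted p = 0.2363 and 0.5737). The share of all rows with that arrangement was not counted. No count of emx1 or kcnj1a.1 was found in control 3, and none of gata3, pax8 or emx1 in mutant 2. Liver, gut and yolk markers, with 17 of 23 found, summed to 99153 CPM of library total in control 3, 8442 and 11171 in controls 1 and 2, and 371.6 to 957.3 in the mutants. In such bulk material, fewer cells of a type cannot be told apart from less RNA per cell.

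One comparison concerns how the skin keratin krt4 differed between genotypes. The row of krt4 (ENSDARG00000017624, GRCz10 chromosome 6, 39310962 to 39315491, minus strand) had 97, 179 and 4263 counts across controls 1 to 3, against 7, 2 and 17 counts across mutants 1 to 3. In TMM-scaled CPM, the scale of all levels below unless another is named, these were 214.2, 325.7 and 25062 across controls 1 to 3, against 37.56, 13.0 and 48.6 across mutants 1 to 3. Every control lay above every mutant, but control 3 exceeded the next library, control 2, 77-fold. The 95% Poisson intervals, which cover counting error only, were 24315 to 25826 for control 3, 279.7 to 377 for control 2 and 173.7 to 261.3 for control 1. Those of the 3 mutants overlapped each other and did not go above 77.81 CPM. The group means were 8534 ± 14314 CPM in controls and 33.05 ± 18.22 in mutants (SD, n = 3 each), so that the control SD exceeded its mean.

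The log2 fold change of krt4, mutant against control, was -8.06 ± 1.99 (SE, n = 3 per group) by edgeR (quasi-likelihood test, Benjamini-Hochberg adjustment over all genes, adjusted p = 0.1135). It did not pass the threshold of 0.05, and nor did any other gene in that test, which called 0% of 3869 rows (521 had an unadjusted p under 0.05, and DESeq2 called 349 genes). The two-sided exact permutation p on CPM was 0.1, the smallest that 3 against 3 libraries allow. Of the 6 members krt4 was the only one with all mutants below all controls, an arrangement seen in 6.08% of all rows. Without control 3 the log2 fold change was -2.98 ± 1.13 (adjusted p = 0.1457), and controls 1 and 2 had 8.17 times the mean CPM of the mutants. Controls 1 and 2 share no sequencing project with any mutant, so for them genotype and project cannot be told apart. With the project as a second term krt4 passed (log2 fold change -9.61 ± 1.13, edgeR adjusted p = 0.01828), where 0.233% of rows were called lower, but control 3 is then the sole control that informs genotype. Within the project of control 3 the log2 fold change was -9.52 ± 1.49 (edgeR adjusted p = 0.3905), with control 3 assumed to vary like the mutants. The quasi-likelihood method of earlier edgeR versions, run without a filter and chosen after seeing the data, gave krt4 a log2 fold change of -7.98 and an adjusted p of 0.01144, with 53 genes (0.529% of rows) called. Limma-voom gave -4.70 (adjusted p = 0.3638) and edgeR on the values as deposited -5.35 (adjusted p = 0.6169), and DESeq2 gave no p for krt4.

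**Figure D1:**
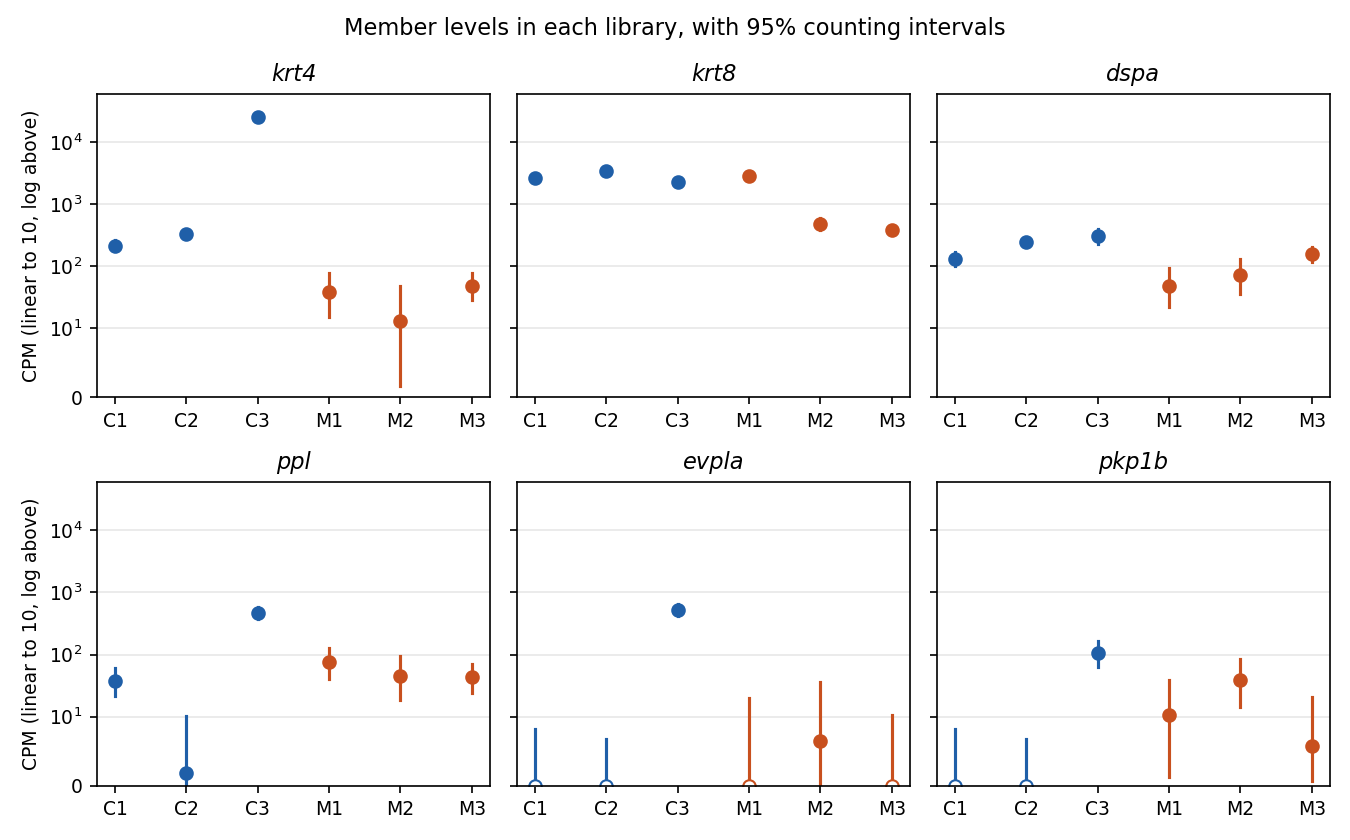
Level of each member in each library (C1 to C3, controls; M1 to M3, mutants), in TMM-scaled CPM on an axis that is linear to 10 and logarithmic above; lines are 95% Poisson intervals and open circles are libraries with 0 counts. krt4, ppl and evpla were far above all other libraries in control 3, while krt8 was low in mutants 2 and 3.

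A further comparison asks whether the simple epithelial keratin krt8 (ENSDARG00000058358, chromosome 23, 10314656 to 10319318, minus strand) followed the skin keratin. Its counts were 1204, 1883 and 384 across controls 1 to 3, against 516, 74 and 131 across mutants 1 to 3. The levels were 2659, 3426 and 2258 CPM across controls 1 to 3, against 2769, 481 and 374.5 CPM across mutants 1 to 3. The groups overlapped, since mutant 1 lay among the controls, and its counting interval overlapped that of control 1. Mutants 2 and 3 overlapped each other and were below all other libraries. Control 3, the highest library for krt4, was the lowest control for krt8.

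The mean of krt8 was 2781 ± 593.7 CPM in controls and 1208 ± 1353 CPM in mutants (SD, n = 3 each). Its log2 fold change was -1.09 ± 1.01 (SE, n = 3 per group; edgeR adjusted p = 0.6778), and the two-sided exact permutation p was 0.3. Without mutant 1 the log2 fold change was -2.68 ± 1.12 (edgeR adjusted p = 0.3489), and without mutants 2 or 3 it was -0.79 and -0.63. Mutant 1 was also the mutant with the highest pronephric marker sum and mutants 2 and 3 had lower ones, while control 3 combined a low pronephric sum with a krt8 level of 2258 CPM. The part of tubule content in the krt8 levels was not tested.

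The type I partner krt18 (ENSDARG00000018404, chromosome 23) had 73, 428 and 62 counts across controls 1 to 3, against 15, 7 and 22 across mutants 1 to 3. Its levels were 161.2, 778.7 and 364.5 CPM against 80.49, 45.5 and 62.89 CPM. Every mutant lay below every control, an arrangement seen in 6.08% of all rows. The log2 fold change of krt18 was -2.63 (edgeR adjusted p = 0.267, exact permutation p = 0.1). A second type I row of the simple keratin list, zgc:77517, which the name table calls krt18b, was named after its values were seen. It had 25, 6 and 34 counts across controls 1 to 3, against 1, 0 and 2 across mutants 1 to 3, again without overlap (edgeR without a filter, adjusted p = 0.1977). The nearest libraries were control 2 at 10.92 CPM and mutant 3 at 5.718 CPM, which rest on 6 and 2 counts. Neither row passed, and krt8 made up 81.5% to 94.3% of the krt8 plus krt18 counts in controls and 85.6% to 97.2% in mutants.

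Scaling cancels when keratins are compared within a library. Counts of krt4 were 7.46% (95% exact binomial interval 6.09 to 9.02), 8.68% (7.5 to 9.98) and 91.7% (90.9 to 92.5) of krt4 plus krt8 counts in controls 1 to 3. In mutants 1 to 3 they were 1.34% (0.54 to 2.74), 2.63% (0.32 to 9.18) and 11.5% (6.84 to 17.8). Mutant 3 thus had a share above those of controls 1 and 2, with overlapping intervals, and the groups overlapped. The log2 ratio of krt4 to krt8 counts, with 0.5 added to each, was -1.18 ± 4.03 in controls and -4.64 ± 1.61 in mutants (SD, n = 3 each), a difference of -3.46, or -1.13 without control 3. It is a description, and no test was made.

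**Figure D2:**
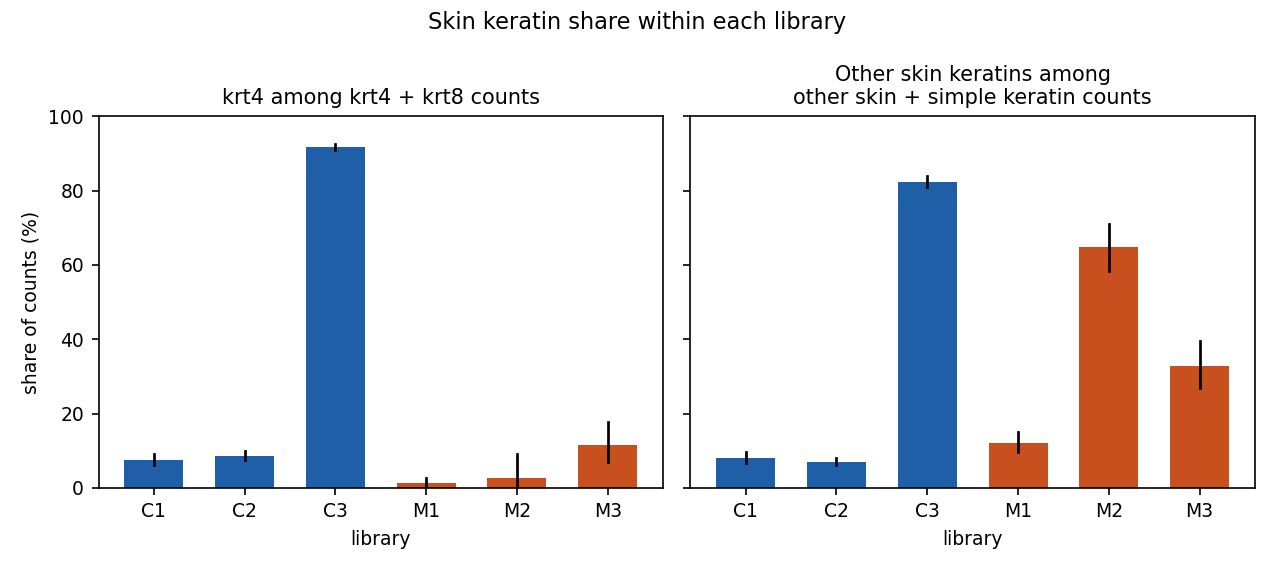
Share of keratin counts (percent) in each library (C1 to C3, controls; M1 to M3, mutants) taken by krt4 among krt4 plus krt8, left, and by the other skin keratins among these and the simple epithelial keratins, right; black lines are 95% exact binomial intervals. Control 3 held 91.7% and 82.3%, controls 1 and 2 held under 10%, and mutant 2 reached 64.9% in the right panel, where 1 row, KRT23, gave most of its counts.

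The other skin keratins were set beside krt4. Of 17 listed skin keratins 13 had a row, krt4 among them, and 7 of the 13 were highest in control 3, where 18.5% of all rows had their highest CPM. The type I keratins of the embryo's outer layer, cyt1 and cyt1l, had 608 and 472 counts in control 3, at most 10 in each other library. The row of krt5 had 66, 2 and 511 counts across controls 1 to 3, against 0, 0 and 6 across mutants 1 to 3. That of krtt1c19e, a keratin of basal skin cells, had 308 counts in control 3, 4 in mutant 3 and 0 in the other 4 libraries. The krt91 row had 179 counts in control 3 and at most 13 elsewhere, and the krt92 row 142 against at most 22. The spans of krt92, cyt1l, cyt1 and krt91 overlap in a chain on 1 strand of chromosome 19, so reads there may be shared between rows.

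The skin list did not move as 1 block. The krt97 row, whose span overlaps that of krt96, was highest in control 2 with 104 counts, against 10 in control 3 and 17, 0 and 12 in the mutants. KRT23, a row that the name table calls krt99 and that was named after its values were seen, had 99 counts in mutant 2 and at most 1 in each other library. It made up 99 of the 152 skin keratin counts of mutant 2. Over the list, 3 rows passed the filter on low counts, all lower in mutants with a median log2 fold change of -1.86, and 0 were called by edgeR. DESeq2, which called 4.38% of the rows it gave an adjusted p, called 1 of the list, krt5 (adjusted p = 0.0169). It gave no adjusted p for krt4, KRT23, krt1-19d, krtt1c19e, krt92, cyt1l, cyt1 and krt91, so these rows could not be called. Without krt4, skin keratins took 7.99%, 7.06% and 82.3% of the skin plus simple keratin counts across controls 1 to 3, against 12.1%, 64.9% and 32.9% across mutants 1 to 3. The keratins krt5 and krt8 lie 72167 bases apart on chromosome 23, and krt5 was highest in control 3 while krt8 was not.

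Desmoplakin is the plaque protein that binds keratin filaments. The row of dspa (ENSDARG00000022309, chromosome 2, 1767465 to 1819985, plus strand) had 59, 135 and 52 counts across controls 1 to 3, against 9, 11 and 54 across mutants 1 to 3. Its levels were 130.3, 245.6 and 305.7 CPM across controls 1 to 3, against 48.29, 71.5 and 154.4 CPM across mutants 1 to 3. The groups overlapped through mutant 3, which lay above control 1 with overlapping counting intervals, and no single library stood far from the rest. The means were 227.2 ± 89.14 and 91.39 ± 55.77 CPM (SD, n = 3 each), the log2 fold change was -1.21 ± 0.98 (SE, edgeR adjusted p = 0.6236) and the exact permutation p was 0.2. With any 1 library left out the log2 fold change stayed between -1.75 and -0.94.

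Periplakin and envoplakin, which pair with each other in mammalian skin, were dominated by 1 library. The row of ppl (ENSDARG00000101043, chromosome 3, 36317932 to 36340128, minus strand) had 17, 1 and 80 counts across controls 1 to 3, against 14, 7 and 15 across mutants 1 to 3. Its levels were 37.55, 1.819 and 470.3 CPM across controls 1 to 3, against 75.12, 45.5 and 42.88 CPM across mutants 1 to 3. Controls 1 and 2 were thus the lowest libraries and control 3 the highest, with the mutants between them. The 95% Poisson interval of control 1, 21.87 to 60.11 CPM, overlapped those of all mutants, while that of control 2, with 1 count, ended at 10.14 CPM. The log2 fold change was -1.67 ± 1.49 (SE, edgeR adjusted p = 0.653, exact permutation p = 1.0), and it turned to 1.45 ± 1.42 without control 3 (edgeR adjusted p = 0.5568).

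The row of evpla (ENSDARG00000019808, chromosome 6, 17959266 to 17983562, plus strand) had 0, 0 and 89 counts across controls 1 to 3, against 0, 1 and 0 across mutants 1 to 3. Its level in control 3 was 523.2 CPM, and a floor set at 3 counts lay at 6.63 and 5.46 CPM in controls 1 and 2. The level in control 3 was 79.0 times the higher of these floors. That ratio leaves out the counting error of control 3, whose 95% Poisson interval was 420.2 to 643.9 CPM. The intervals of controls 1 and 2, at 0 counts, reached above the floors, to 8.147 and 6.712 CPM. Pooled over libraries, the ratio of controls to mutants was 52.4 (95% exact binomial interval 9.16 to 2092), and all its control counts came from control 3. That interval covers counting error only and leaves out the spread between libraries, so it does not measure a genotype difference. The filter removed evpla, and without a filter edgeR gave an adjusted p of 0.2077 and DESeq2 0.1204. The exact permutation p was 1.0.

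Plakophilin 1 is, in mammals, the plakophilin of layered epithelia. The row of pkp1b (ENSDARG00000052705, chromosome 6, 54703198 to 54745934, plus strand) had 0, 0 and 18 counts across controls 1 to 3, against 2, 6 and 2 across mutants 1 to 3. Its levels were 105.8 CPM in control 3 and 10.73, 39.0 and 5.718 CPM in the mutants. Control 3 was again the highest library, but its interval of 62.72 to 167.2 CPM overlapped that of mutant 2 at 14.31 to 84.88, and controls 1 and 2 were at 0. The filter removed pkp1b too, so 4 of the 6 members were tested in the filtered fit. Without a filter its log2 fold change was -0.85 ± 1.86 (SE, edgeR adjusted p = 0.8364, exact permutation p = 1.0). Without control 3 the controls held 0 counts against 10 in the mutants, and edgeR gave an adjusted p of 0.1812.

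**Figure D3:**
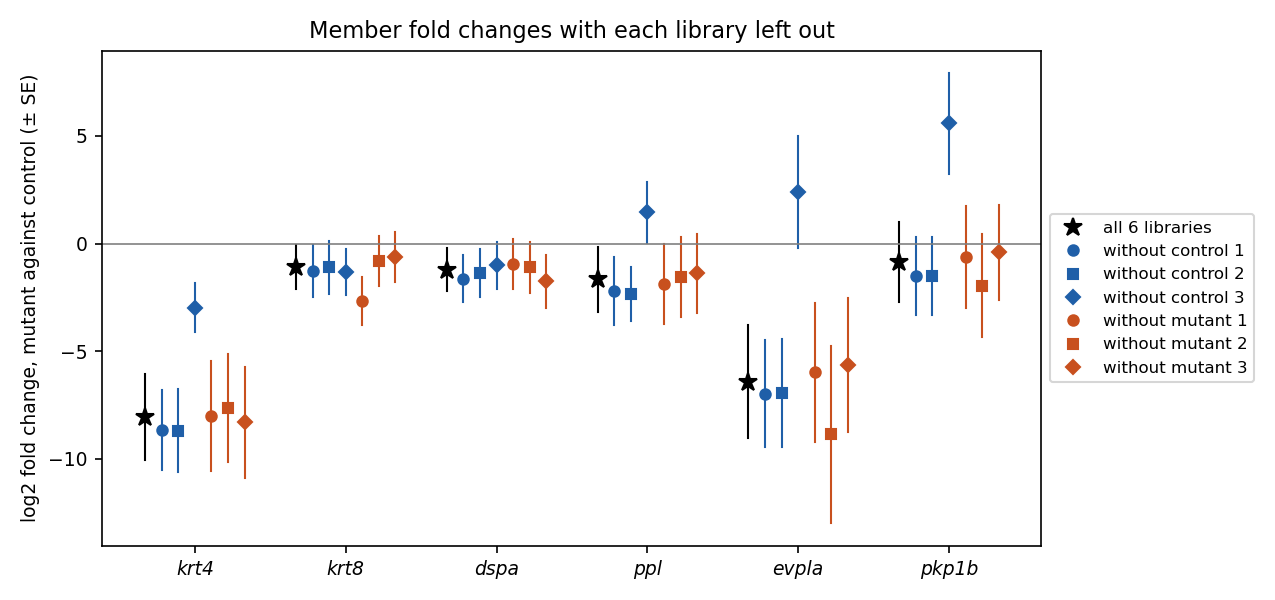
Log2 fold change of each member, mutant against control, from edgeR with all 6 libraries (star) and with each library left out; lines are ± 1 SE. Without control 3 krt4 shrank from -8.06 to -2.98 and ppl, evpla and pkp1b turned positive, while krt8 and dspa stayed negative throughout; the values of evpla and pkp1b without control 3 rest on a prior count, since the controls then hold 0 counts.

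The rest of the desmosome showed no common pattern. Of 12 listed plaque genes 8 had a row and 6 of these were highest in control 3, the 4 plaque members among them. Of all rows 18.5% were highest there. The others were jupa, a plakoglobin gene with 61 counts in control 3, 51 and 36 in controls 1 and 2 and 11, 8 and 26 in the mutants, and pkp3a with 121 against 4 and 30 across controls 1 to 3, against 5, 6 and 8 across mutants 1 to 3. The exceptions were the other plakoglobin gene jupb, with 90, 0 and 5 counts in controls 1 to 3, against 22, 49 and 8 in mutants 1 to 3, and pkp2, a plakophilin of simple epithelia and heart in mammals. Levels of pkp2 were 50.8, 30.93 and 23.52 CPM across controls 1 to 3, against 193.2, 78.0 and 97.2 CPM across mutants 1 to 3, with all mutants above all controls (log2 fold change 1.91, edgeR adjusted p = 0.4516). How many of all rows had mutants above controls in this way was not counted. Over the 5 plaque rows that passed the filter, 3 were lower and 2 higher, 0 were called and 52.2% of all rows tested were lower. The median log2 fold change of the 5 was -1.21, against -0.10 over all rows tested.

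Most rows of the desmosomal cadherins and the plakins of other junctions did not peak with the skin keratins. None of the 3 desmosomal cadherin rows was highest in control 3, where 18.5% of all rows had their highest CPM. The desmoglein dsg2l had 87, 177 and 2 counts across controls 1 to 3, against 10, 5 and 16 across mutants 1 to 3, and the desmocollin dsc2l 262, 12 and 16 against 55, 2 and 13. Of the 10 rows for hemidesmosomes and other plakins 2 were highest in control 3, the basal skin collagen col17a1a and the integrin itgb4, which had 60 counts there, 1 and 55 in controls 1 and 2, and 9, 18 and 29 across the mutants. The plectin plecb was at 1650, 1665 and 452.7 CPM across controls 1 to 3, against 633.2, 299 and 260.2 CPM across mutants 1 to 3. The plectin pleca was at 755.3, 904.3 and 1217 CPM against 209.3, 2866 and 225.8 CPM, and the spectraplakin macf1a had 297, 665 and 112 counts against 344, 75 and 182. The integrin itga6b had 243, 79 and 18 counts across controls 1 to 3, against 4, 1 and 33 across mutants 1 to 3. In CPM every mutant was below every control, an arrangement seen in 6.08% of all rows. The nearest libraries were control 3 at 105.8 CPM and mutant 3 at 94.34 CPM, which rest on 18 and 33 counts. The integrin itga6a had 133, 42 and 4 counts against 37, 66 and 13. None of these rows was called by edgeR or DESeq2, and DESeq2 gave no adjusted p for pleca.

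In sum, skin markers other than keratins were also highest in control 3, but their order in the other libraries was not that of krt4, with 2 mutants above controls 1 and 2. Of 18 listed periderm and keratinocyte genes 16 had a row, and 14 of them were highest in control 3, against 18.5% of all rows. They summed to 72.42, 64.32 and 7770 CPM of library total across controls 1 to 3, against 58.06, 480.8 and 550.4 across mutants 1 to 3. All 16 rows were detected in control 3, 7 and 5 in controls 1 and 2, and 6, 8 and 11 in the mutants. The transcription factor of basal skin cells tp63 had 42 counts in control 3, 0 in controls 1 and 2 and 1, 1 and 4 in the mutants. The skin S100 protein icn had 875 counts in control 3, 3 and 17 in controls 1 and 2 and 0, 12 and 0 in the mutants. In controls 1 and 2, 7 of the 16 rows were at 0, and in all mutants 4 were at 0 (anxa1a, scel, cldne and icn2). The exceptions to the peak in control 3 were klf17 and tgm1l1, both highest in mutant 3. They gave a large part of the mutant sums, with 19 and 70 counts of klf17 and 10 and 23 of tgm1l1 in mutants 2 and 3. No other row of the list had more than 12 counts in mutant 2 or 17 in mutant 3. The part of skin and liver transcripts in the genotype differences of the members was not tested.

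**Figure D4:**
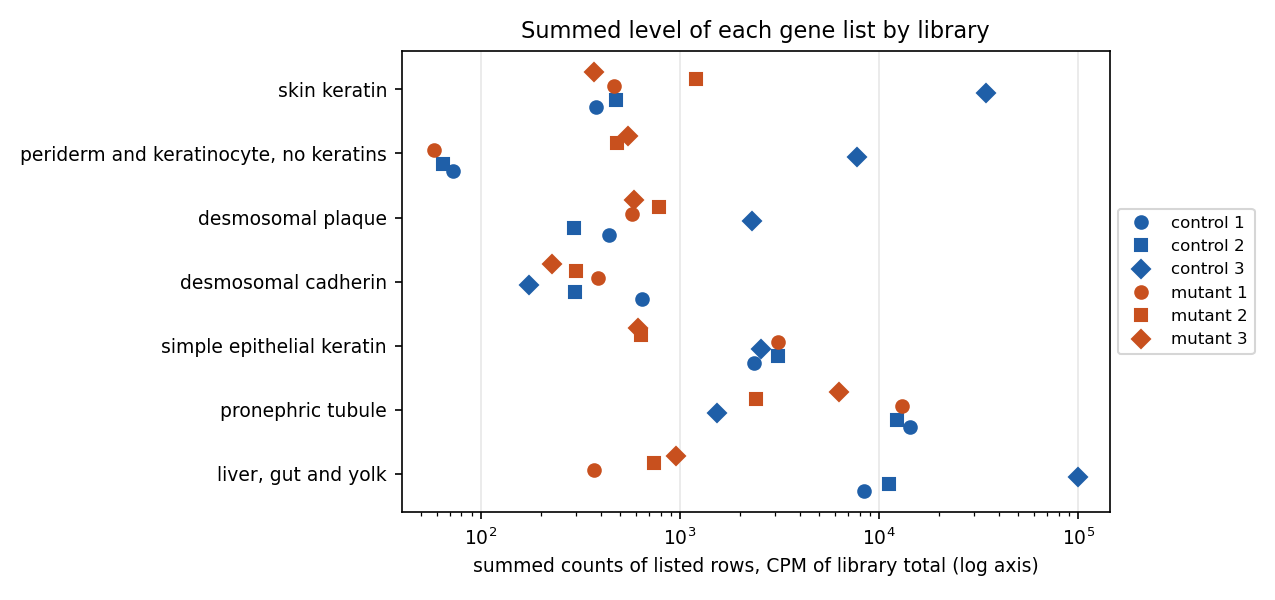
Summed counts of the rows of each gene list in each library, in CPM of library total on a logarithmic axis; blue marks controls and orange mutants, with a symbol for each number. In control 3 the skin keratin sum was 34581 against 370.9 to 1198 in all other libraries, while its simple keratin sum of 2553 lay between the 2357 of control 1 and the 3105 of control 2.

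Patterns over the 6 libraries also differed between the keratins. Likeness was measured as Pearson's r of log2(CPM + 10) over the 6 libraries with the most similar rows sought among those passing the filter, as a description in which the points share depth and project. The 5 rows most like krt4 were rbp4, a retinol carrier of plasma (0.986), zgc:171759 (0.975), efhd2 (0.970), the lysosomal protease ctsd (0.970) and the filamin flna (0.963). Counts of rbp4 were 57, 87 and 2746 across controls 1 to 3, against 0, 1 and 2 across mutants 1 to 3. Among the 5 rows most like krt8 were the metallothionein mt2 (0.987), flot1b (0.967), ipo8 (0.957) and the phosphate transporter slc20a1b (0.954). Counts of slc20a1b were 303, 633 and 64 across controls 1 to 3, against 146, 12 and 44 across mutants 1 to 3. Between the members, of which the filter had removed evpla and pkp1b, r with krt4 was 0.878 for evpla, 0.789 for dspa, 0.595 for ppl, 0.509 for pkp1b and 0.467 for krt8. With krt8 it was 0.218 for dspa, 0.145 for evpla, -0.025 for ppl and -0.190 for pkp1b, and 0.724 for krt18. Control 3 held 93.4% of the counts of krt4, 98.9% for evpla, 64.3% for pkp1b and 59.7% for ppl. For dspa and krt8 it held 16.2% and 9.16%, and r without control 3 was not computed.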

How the data were processed

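The deposited table holds whole-number counts per gene, which its file name calls filtered raw counts. The submitters' processing notes list the build GRCz10 along with Trimmomatic 0.36.0, TopHat2 2.1.0 and DESeq2, while no source used here names the counter. Per the labels' protocols, cDNA from random and poly-T primers was amplified without strand information, so overlapping genes of either strand may share reads, and intervals cover counting error only. Column minima of 11, 0 and 32 (controls) and 30, 31 and 17 (mutants), shared by 9.46% to 27.7% of rows, were read as 1 constant per library and subtracted. No source states them. The authors' deposited FDR (p-value) table of 379 rows lists none of the 6 members.

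Tests used R 4.3.3, edgeR 4.0.16 (quasi-likelihood, version 4 method, robust, TMM, filterByExpr, group as only term), DESeq2 1.42.0 and limma 3.58.1, and the edgeR fit was tested on simulated data. Members that filterByExpr removed were tested without it. The threshold was 0.05, and the median log2 fold change of all tested rows was -0.10. SE is the fold change over the square root of F. List rows were matched by name in the file or in the name table. Members and lists were chosen with earlier results of these data known. Rows of the keratin, desmosome and plakin lists were given values where they averaged at least 20 counts. Other rows named, col17a1a and the single skin and tubule markers included, were named after their values were seen. Of 13 muscle, 8 red blood cell and 8 neuron markers 9, 1 and 4 had a row and 7, 0 and 4 were tested, with 0 calls in edgeR. DESeq2, which called 4.38% of the rows it gave an adjusted p, called 2 neuron rows. In 3 of the 4 all mutants lay above all controls, but the share of all rows so arranged was not counted. The summed muscle CPM was 20243 in control 1, 510.6 in control 2 and 744.6 in control 3, against 2433 to 8189 in the mutants. Keratin shares and ratios are of counts, not corrected for transcript length, which was not used here, so they serve to compare libraries and not the levels of genes. Some rows that the naming rule covers are not reported here.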

Additional observations from a re-analysis of the deposited data

How the results depend on the processing

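The count of genes called by edgeR was 0 with 521 at an unadjusted p under 0.05 (329 higher, 192 lower), 349 by DESeq2, 9 once the sequencing project was a term, 53 with the quasi-likelihood method of earlier edgeR versions and no filter, and 0 in every other fit, limma-voom included (560 at an unadjusted p under 0.05). Scaling moved the median log2 fold change of all rows from -0.10 to 0.09 (RLE), 0.19 (upper quartile) and 0.60 (library totals only), and the share of higher genes among those at an unadjusted p under 0.05 from 63.1% to 85.2%. Relative to that median krt8 stayed between -1.12 and -0.99 and dspa between -1.15 and -1.03. Not set against the median, their log2 fold changes were -1.09 and -1.21 with TMM, but -0.52 and -0.43 with library totals only. The TMM factors split by group, at 0.737 to 0.905 in controls and 1.082 to 1.395 in mutants. The project term brought krt4 past the threshold at -9.61, and so did the earlier method without a filter at -7.98. Its log2 fold change was smaller with limma-voom (-4.70), the replicate block (-5.02) and the values as deposited (-5.35). The earlier method, with and without a filter, was chosen after seeing the data. Leaving out 1 library at a time gave -2.34 to 1.45 for the log2 fold change of ppl, -8.87 to 2.41 for evpla and -1.95 to 5.58 for pkp1b, and -199.4 to 34.8, -259.4 to 2.17 and -34.4 to 18.5 CPM for their differences in mean level. Each positive value came without control 3, where evpla and pkp1b have 0 control counts and their fitted values rest on a prior count. Limma-voom also turned ppl (1.62) and pkp1b (1.83), and the values as deposited turned pkp1b (0.43). For evpla the log2 fold change was -6.41 by edgeR without a filter, -0.91 with limma-voom and -0.73 with the values as deposited. For krt8 it was -1.09 by edgeR with the filter, -1.70 with limma-voom and -2.69 with the values as deposited. Whether the same replicate numbers mark shared material was not settled. Deviations of libraries with the same number correlated at 0.082, -0.058 and 0.028, and those of other pairs at -0.126 to 0.110. Not every library correlated best with its own number, but 3 libraries per group are too few to decide the question. The replicate block gave 0 calls and turned ppl (0.71) and pkp1b (1.06). The cause of these reversals was not tested beyond the fits without control 3. With 126861 to 746232 counts per library, the floor of 3 counts lay as high as 19.5 CPM, in mutant 2.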

Other observations

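Rows outside the lists that carry keratin or plakophilin names, all named after their values were seen, went different ways. The row krtcap2, included for its name alone and not as a keratin or skin marker, had 2, 5 and 24 counts in controls 1 to 3, but 0 in each mutant. The row KRT78 (2 of 2) had 28 counts in control 3, 0 in controls 1 and 2 and 1, 3 and 0 in the mutants. The row krt222 had 1, 4 and 36 counts across controls 1 to 3, against 5, 38 and 47 across mutants 1 to 3, and pkp4 had 4, 20 and 9 against 12, 17 and 40. The epiplakin gene eppk1, a keratin-binding plakin named after its values were seen, had 3, 2 and 1 counts across controls 1 to 3, against 15, 24 and 17 across mutants 1 to 3. At 4.21 on the log2 scale this difference did not pass (edgeR adjusted p = 0.1173, DESeq2 adjusted p = 0.08093).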
